A study of Mus musculus with 37 samples.

Results

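The 10 genes described here carry the synthesis, conjugation, transport and sensing of bile acids in hepatocytes: Cyp7a1, Cyp8b1, Cyp27a1, Baat, Abcb11, Slc10a1, Slco1b2, Abcc3, Nr1h4 and Nr0b2. They were taken by name as 10 rows of a table of raw read counts for 55536 genes in mouse liver, and all 10 were among the 16710 genes with enough counts to be tested. The livers came from mice aged 10 months in 4 groups of 4 libraries. The combined genotype TMEM106B-/- TDP-43Q331K lacks the lysosomal membrane protein TMEM106B and carries the Q331K change of TDP-43, a protein that binds RNA. TMEM106B-/- lacks TMEM106B alone, TDP-43Q331K carries the TDP-43 change alone as a knock-in, and WT has neither. The labels give no feeding state or time of collection for any group, and they do not say whether the libraries of a group come from separate animals, so a p-value here speaks only of how these libraries scatter.

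Bile acids are made from cholesterol in hepatocytes by a classic route that opens with CYP7A1 and an alternative route that opens with CYP27A1. CYP8B1 steers the product towards cholic acid, and BAAT joins the finished acid to taurine or glycine. The acids are pumped into bile by ABCB11, return from the gut through the portal blood, and re-enter hepatocytes by SLC10A1 and SLCO1B2, while ABCC3 exports them to blood. The nuclear receptor FXR, encoded by Nr1h4, senses bile acids and raises Nr0b2, whose product SHP holds down Cyp7a1 and Cyp8b1 in mouse liver.

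The 16 liver libraries held 50.5 to 74.1 M counts (M, 1e6), and values are given below as CPM, counts scaled by TMM to a total of 1e6, or, between genes, per kilobase of exon (RPKM). No library of a group repeated another within counting noise. RNA of the targeted gene Tmem106b averaged 135.1 ± 9.15 CPM in the combined genotype and 115.3 ± 9.32 in TMEM106B-/- livers, against 91.9 ± 21.3 in TDP-43Q331K and 96.5 ± 16.3 in WT livers (SD, n = 4 each). It was not lower in the livers labelled as lacking TMEM106B. It was called higher in the combined genotype than in TDP-43Q331K livers (0.56 ± 0.15 on the log2 scale, edgeR adjusted p = 0.0497) and was not called against WT (0.48 ± 0.15, edgeR adjusted p = 0.0625). This goes against a loss of the RNA, so the genotype names used below are those of the labels, and directions for TMEM106B loss rest on them. Of 7 hepatocyte markers all were detected, and Alb was at 65281 CPM or more in every liver. The acute phase genes, which the liver switches on in inflammation, summed to 17695 to 19548 CPM in 3 livers (combined genotype replicate 1, TMEM106B-/- replicate 4 and WT replicate 2) and to at most 11921 CPM in the others. Results were also computed without these 3 livers, a choice made after seeing the data. These are whole-tissue samples, so a change in the number of hepatocytes and a change in the RNA per hepatocyte cannot be told apart.

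Of the 10 genes, 1 was called in any comparison: Cyp8b1, which rose in the combined genotype. Its transcript stood 3.61-fold above WT there, while the other 9 genes did not pass the test in any of the 6 comparisons. In the combined genotype against WT, 1 of 10 genes was called by edgeR at a Benjamini-Hochberg adjusted p under 0.05, against 7.04% of all genes tested (4.19% higher and 2.85% lower). No gene of the 10 was called in the combined genotype against TDP-43Q331K (3.94% of all genes) or against TMEM106B-/- (1.04%). None was called in TMEM106B-/- against WT (1.05%), in TDP-43Q331K against WT (0.263%), or in the interaction (0.688%), which asks whether the effect of TMEM106B loss differs with and without TDP-43Q331K. At an unadjusted p under 0.05, edgeR gave 3 of the 10 in the combined genotype against WT (22.6% of all genes), 2 against TDP-43Q331K (20.5%) and 1 against TMEM106B-/- (13.5%). It gave 2 in TMEM106B-/- against WT (15.1%), 1 in TDP-43Q331K against WT (15.2%) and 0 in the interaction (16.3%). With DESeq2 or limma-voom in place of edgeR, Cyp8b1 was also called in TDP-43Q331K against WT and in the combined genotype against TMEM106B-/-. Over all genes, DESeq2 called 391 and 531 there, and limma-voom 341 and 376. limma-voom alone also called Slc10a1 in TMEM106B-/- against WT and Abcb11 in the combined genotype against WT, where it called 324 and 1940 of all genes. Neither tool called a gene of the 10 in the combined genotype against TDP-43Q331K or in the interaction. The comparisons share libraries, so their values are not independent of each other. The median log2 fold change of the 10 genes was 0.16 in the combined genotype against WT, where 5 were above 0 and 5 below, beside a median of -0.03 over all genes tested.

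**Figure D1:**
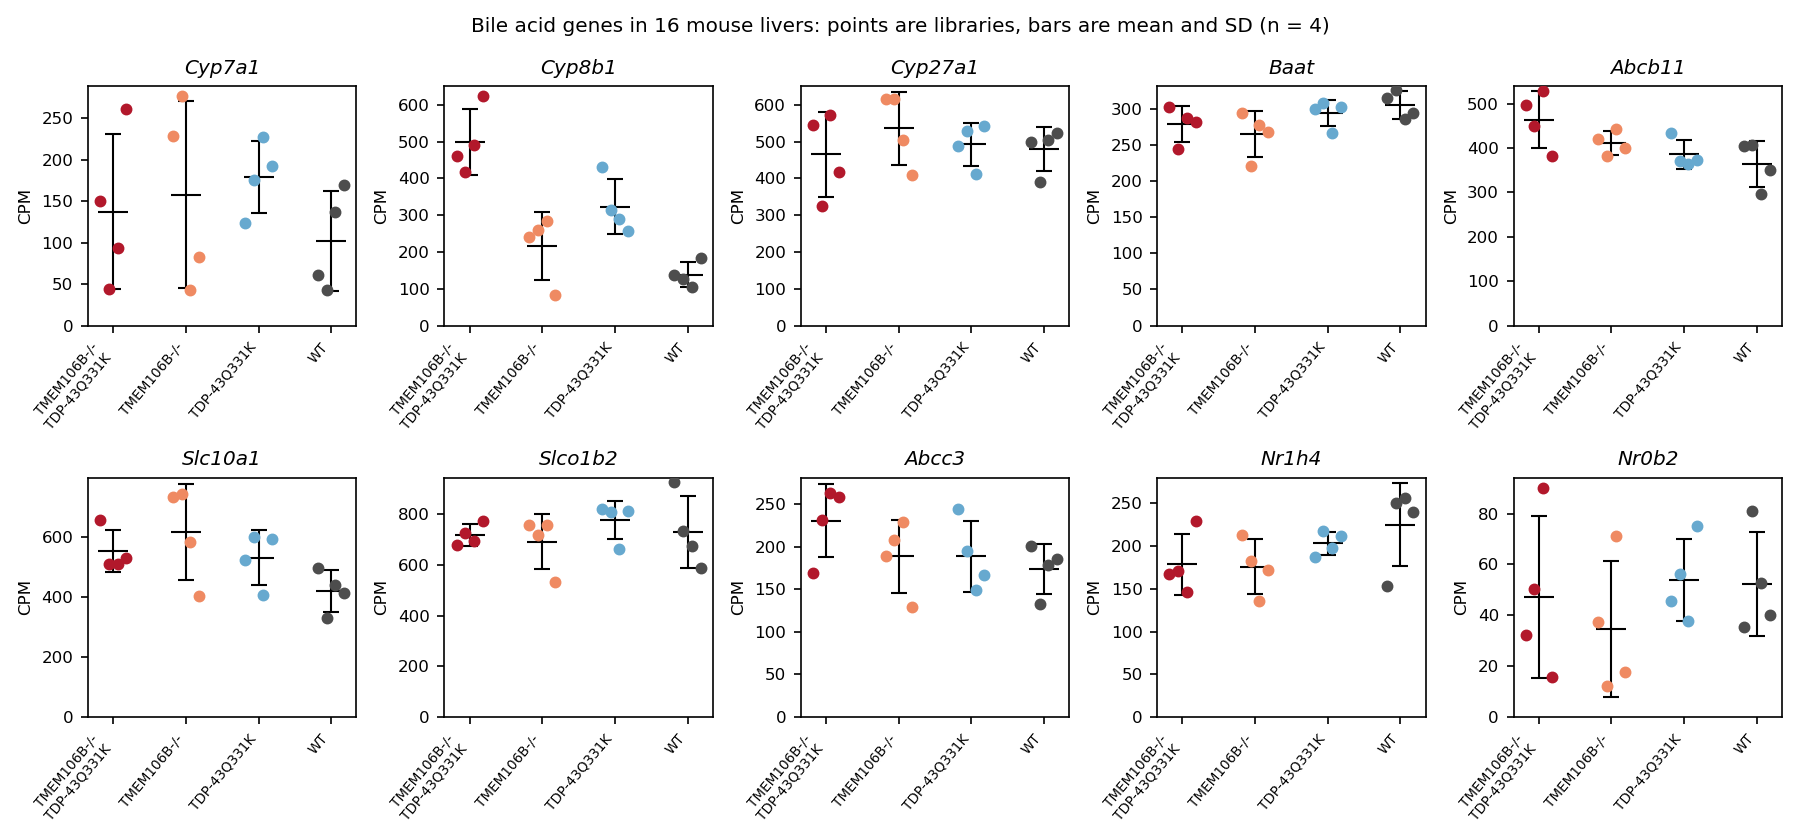
Level of each of the 10 bile acid genes in CPM (linear axis from 0) by genotype; each point is 1 liver library and the bars are the mean and SD of 4. Cyp8b1 sits between 419 and 624 CPM in the combined genotype, above all WT livers (105 to 184 CPM), while the groups of most other genes shown overlap. Of all genes tested, 14.6% showed no overlap, in either direction, in the combined genotype against WT.

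Per length of exon, the genes spanned a wide range. Averaged over all 16 livers, Slc10a1 (241 ± 53.8 RPKM) and Cyp27a1 (227 ± 38.0) were the most abundant of the 10. Cyp8b1 (151 ± 79.6), Slco1b2 (148 ± 19.1) and Baat (147 ± 13.7) followed. Nr1h4 (85.0 ± 16.1), Abcb11 (79.0 ± 10.99), Nr0b2 (41.5 ± 20.6), Cyp7a1 (34.5 ± 18.9) and Abcc3 (34.3 ± 7.30) were lower, each SD being over 16 livers of all genotypes. The place of Cyp8b1 in this order differed by genotype. It averaged 256 ± 45.4 RPKM in the combined genotype, beside Slc10a1 at 251 ± 31.8, and 71.0 ± 17.0 RPKM in WT livers, beside Abcb11 at 70.8 ± 10.2 (SD, n = 4 each).

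Cyp8b1 (ENSMUSG00000050445, GRCm38 chromosome 9, 121914356 to 121916305, minus strand) encodes the sterol hydroxylase needed to make cholic acid, and its 1950 bases of exon fill the whole gene. Its level was 462, 419, 491 and 624 CPM in the combined genotype and 241, 259.8, 284 and 81.9 CPM in TMEM106B-/- livers. It was 432, 313, 290.2 and 258 CPM in TDP-43Q331K livers and 138, 126, 105 and 184 CPM in WT livers. All 4 livers of the combined genotype lay above all WT and all TMEM106B-/- livers, and all 4 TDP-43Q331K livers lay above all WT livers. Of all genes tested, 14.6% showed a lack of overlap, in either direction, in the combined genotype against WT. The share was 8.99% in the combined genotype against TMEM106B-/- and 8.64% in TDP-43Q331K against WT. Among TMEM106B-/- livers, 3 lay above every WT liver and replicate 4 lay below every one. By mean, the order was the combined genotype (499 ± 88.6 CPM), TDP-43Q331K (323 ± 75.8), TMEM106B-/- (217 ± 91.4) and WT (138 ± 33.1; SD, n = 4 each).

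The RefSeq start of Cyp8b1 lies in a window of the GRCm38.p6 promoter table, and its 250 upstream bases (chr9:121916306-121916555, minus strand) are shown because this is the gene that moved. Capitals mark a joined pair of motif matches, an HNF4 form followed by an extended NR5A form, 67 to 53 bases upstream of the start. HNF4 and the NR5A factor LRH-1 are nuclear receptors known to drive Cyp8b1 in mouse liver.
Cyp8b1: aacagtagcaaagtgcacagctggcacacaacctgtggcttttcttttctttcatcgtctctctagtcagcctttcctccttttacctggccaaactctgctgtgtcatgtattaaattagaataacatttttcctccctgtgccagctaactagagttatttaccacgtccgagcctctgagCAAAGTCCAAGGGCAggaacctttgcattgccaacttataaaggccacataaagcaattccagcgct

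Against WT, Cyp8b1 was higher in the combined genotype by 1.85 ± 0.30 on the log2 scale (95% interval 1.21 to 2.49, edgeR adjusted p = 0.00178, 4 of 4 libraries above every WT library). The call held in all 23 alternatives, with log2 values of 1.73 to 2.02 and adjusted p between 2.2e-08 and 0.00927, and without the 3 livers of high acute phase it was 1.84 (adjusted p = 0.000369). In TDP-43Q331K against WT the difference was 1.22 ± 0.30 (95% interval 0.59 to 1.86), which did not pass the test (edgeR adjusted p = 0.103). It was called in 3 of 23 alternatives, namely DESeq2 (adjusted p = 0.00439), limma-voom (adjusted p = 0.0177) and edgeR without TMEM106B-/- replicate 4 (adjusted p = 0.00934). In TMEM106B-/- against WT it was 0.65 ± 0.29 (95% interval 0.02 to 1.27, edgeR adjusted p = 0.315). Without TMEM106B-/- replicate 4, 1 of the livers of high acute phase, that value was 0.92 and was called (edgeR adjusted p = 0.0203). No other of the 23 alternatives called it, including the fit without all 3 livers of high acute phase.

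The steps within the order of genotypes were less certain. The combined genotype stood above TMEM106B-/- by 1.20 ± 0.30 (95% interval 0.57 to 1.84, edgeR adjusted p = 0.0718), with no overlap between the groups, which 8.99% of all genes also showed. That difference was called with DESeq2 (adjusted p = 0.0030), with limma-voom (adjusted p = 0.0322) and by edgeR without TMEM106B-/- replicate 4 (0.93, adjusted p = 0.0355), and its adjusted p ranged up to 0.172 over the 23 alternatives. Against TDP-43Q331K the combined genotype was higher by 0.63 ± 0.29 (95% interval 0.00039 to 1.25, edgeR adjusted p = 0.243), with overlapping livers, and no alternative called it. The interaction was -0.02 ± 0.42 with a 95% interval of -0.90 to 0.86 (edgeR adjusted p = 0.987).

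**Figure D2:**
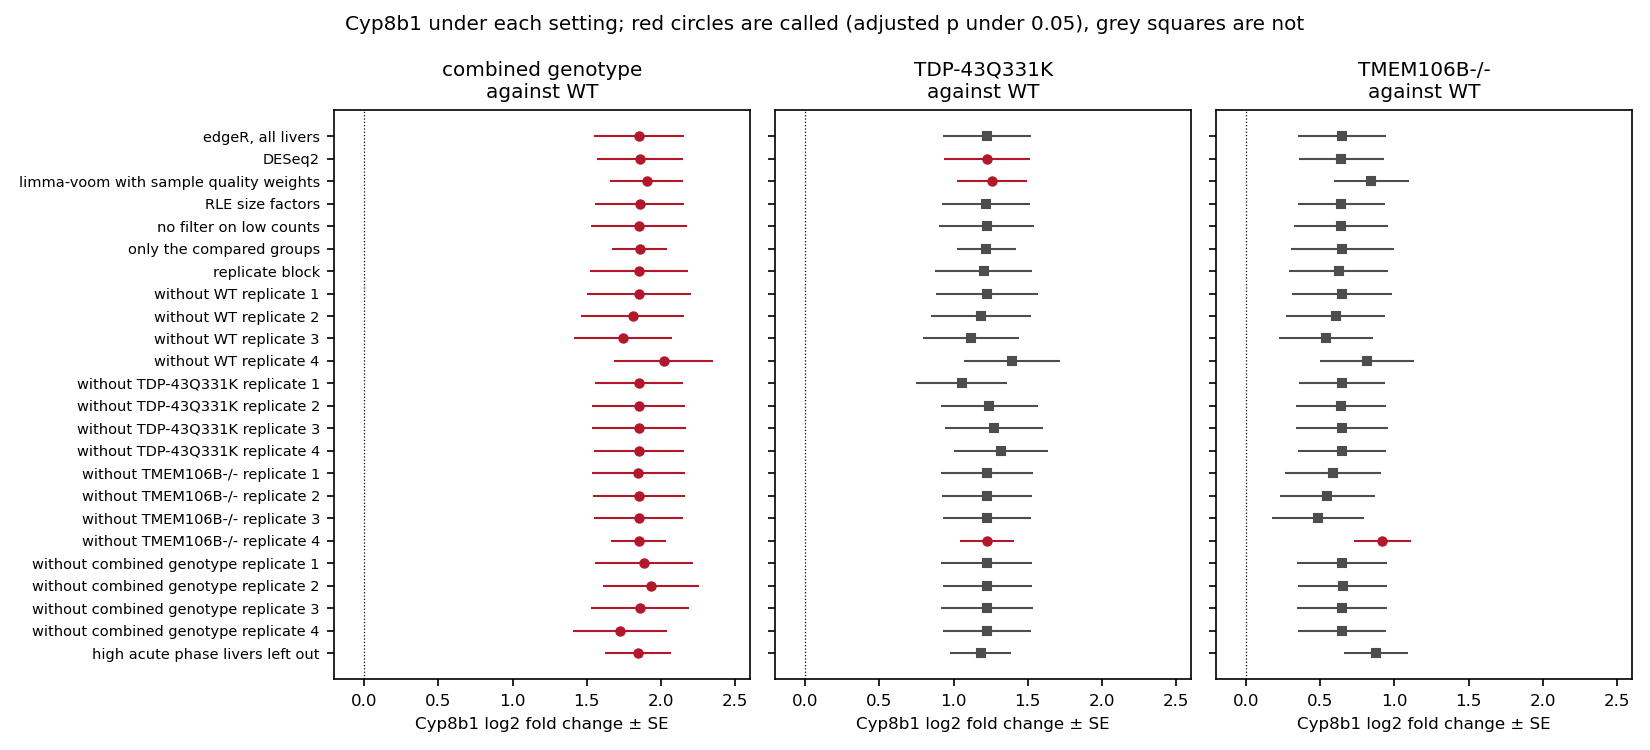
Log2 fold change of Cyp8b1 with its SE (horizontal bars) under edgeR on all livers and 23 alternatives, for the combined genotype, TDP-43Q331K and TMEM106B-/-, each against WT; red circles are called at an adjusted p under 0.05 and grey squares are not. The combined genotype stays between 1.73 and 2.02 and is red in every row, while the other genotypes are red in 3 rows and 1 row.

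Cyp27a1 (ENSMUSG00000026170, chromosome 1, 74713574 to 74737892, plus strand), the mitochondrial hydroxylase that opens the alternative route, was not called in any comparison. It had 547, 325, 572 and 418 CPM in the combined genotype against 499.5, 390.3, 505 and 523 CPM in WT livers. The groups overlapped, and the difference was -0.04 ± 0.18 (95% interval -0.41 to 0.33, edgeR adjusted p = 0.919). The RPKM of Cyp8b1 was 0.942, 1.44, 0.956 and 1.67 times that of Cyp27a1 in the combined genotype. The ratio was 0.436, 0.470, 0.626 and 0.222 in TMEM106B-/- livers and 0.983, 0.661, 0.786 and 0.529 in TDP-43Q331K livers. In WT livers it was 0.309, 0.360, 0.232 and 0.391. The combined genotype and WT did not overlap in this ratio, nor did the combined genotype and TMEM106B-/-. TDP-43Q331K livers also all lay above WT livers in it, and they overlapped with the combined genotype. No test was made on the ratio.

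Baat (ENSMUSG00000039653, chromosome 4, 49489422 to 49506557, minus strand), which conjugates bile acids to taurine or glycine, was the steadiest of the 10. It had 302, 244, 287 and 282 CPM in the combined genotype against 316, 326, 286 and 294 CPM in WT livers, groups that overlap. Across all 16 livers its highest value was 1.48 times its lowest, and its spread within genotypes (SD of 0.129 in log2 CPM) was larger than that of only 8.75% of all genes tested. The combined genotype differed from WT by -0.13 ± 0.11 (95% interval -0.36 to 0.09, edgeR adjusted p = 0.509).

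Cyp7a1 (ENSMUSG00000028240, chromosome 4, 6265612 to 6275633, minus strand), the rate-limiting enzyme of the classic route, was uneven between livers of the same genotype. It had 149.7, 44.0, 93.3 and 261 CPM in the combined genotype and 229, 277, 43.1 and 82.2 CPM in TMEM106B-/- livers. It had 123, 176, 227 and 192 CPM in TDP-43Q331K livers and 61.1, 42.5, 136 and 169 CPM in WT livers. Every group held both high and low livers except TDP-43Q331K, whose lowest liver was at 123 CPM, and all groups overlapped. Its spread within genotypes (SD of 0.976 in log2 CPM) exceeded that of 95.1% of all genes tested, beside 0.495 for Cyp8b1. The combined genotype differed from WT by 0.42 ± 0.62 (95% interval -0.92 to 1.76, edgeR adjusted p = 0.751). TDP-43Q331K differed from WT by 0.81 ± 0.63 (edgeR adjusted p = 0.577) and TMEM106B-/- by 0.62 ± 0.62 (edgeR adjusted p = 0.684).

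Nr0b2 (ENSMUSG00000037583, chromosome 4, 133553376 to 133556536, plus strand), which encodes the repressor SHP, was uneven as well. It had 32.1, 50.4, 90.1 and 15.9 CPM in the combined genotype and 37.2, 12.2, 71.3 and 17.8 CPM in TMEM106B-/- livers. It had 45.6, 56.4, 37.9 and 75.2 CPM in TDP-43Q331K livers and 35.2, 80.9, 52.9 and 40.3 CPM in WT livers. All groups overlapped. The SD within genotypes was 0.845 in log2 CPM, and the highest of the 16 livers stood 7.39-fold above the lowest (6.51-fold for Cyp7a1). The combined genotype differed from WT by -0.15 ± 0.56 (95% interval -1.35 to 1.05, edgeR adjusted p = 0.913). Without the 3 livers of high acute phase this value was 0.29, still not called.

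SHP is known to hold down Cyp7a1 in mouse liver, so the order of livers in the pair was read liver by liver. In the combined genotype the liver with the highest Cyp7a1 (replicate 4) had the lowest Nr0b2. The same held for replicate 2 of TMEM106B-/- and replicate 3 of TDP-43Q331K. In WT livers it did not hold, with Cyp7a1 highest in replicate 4 and Nr0b2 lowest in replicate 1. Of the 6 pairs of livers within a genotype, the pair of genes ran in opposite order in 5 in the combined genotype and in 5 in TMEM106B-/-. They ran in opposite order in 3 of 6 in TDP-43Q331K and in 4 of 6 in WT. The values of the pair come from the same libraries, and no test was made on these counts. Cyp8b1, which SHP is also known to hold down, was not counted in this way. Its highest liver in the combined genotype (replicate 4, 624 CPM) had the lowest Nr0b2. In TMEM106B-/- its highest liver (replicate 3, 284 CPM) had the highest Nr0b2 (71.3 CPM). In TDP-43Q331K and in WT its highest liver had neither the highest nor the lowest Nr0b2.

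**Figure D3:**
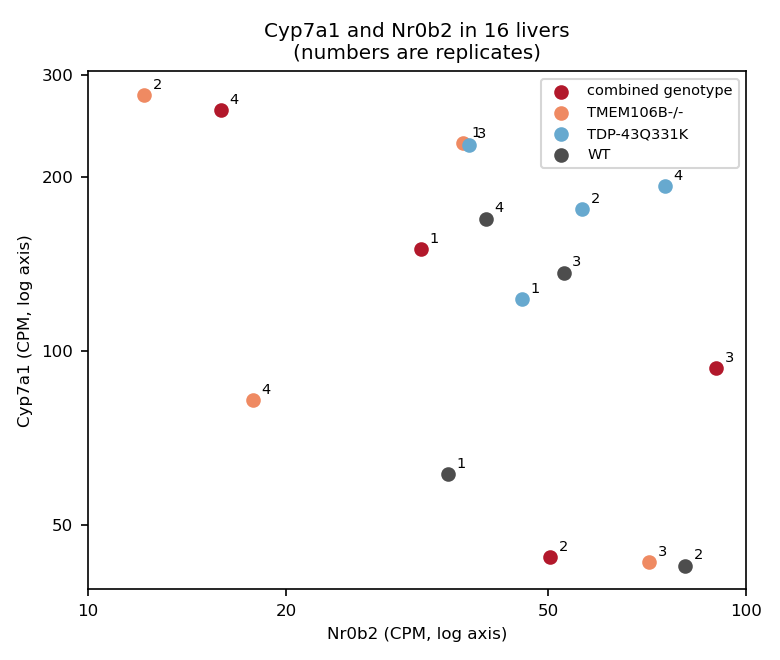
Cyp7a1 against Nr0b2 in CPM (both log axes) in 16 liver libraries, coloured by genotype and numbered by replicate. In the combined genotype, replicate 4 has the highest Cyp7a1 and the lowest Nr0b2 (261 and 15.9 CPM), replicate 3 the highest Nr0b2 (93.3 CPM of Cyp7a1 and 90.1 of Nr0b2) and replicate 2 the lowest Cyp7a1 (44.0 CPM, with 50.4 of Nr0b2), and no genotype forms a cluster of its own.

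The Nr0b2 start lies in the same promoter table, and its 250 upstream bases (chr4:133553126-133553375, plus strand) are shown because both bile acid feedback and the daily clock are known to act on it. Capitals mark an extended NR5A form joined to an E-box 201 to 190 bases upstream, and 2 copies of the short NR5A form TCAAGG at 68 to 63 and 35 to 30 bases upstream.
Nr0b2: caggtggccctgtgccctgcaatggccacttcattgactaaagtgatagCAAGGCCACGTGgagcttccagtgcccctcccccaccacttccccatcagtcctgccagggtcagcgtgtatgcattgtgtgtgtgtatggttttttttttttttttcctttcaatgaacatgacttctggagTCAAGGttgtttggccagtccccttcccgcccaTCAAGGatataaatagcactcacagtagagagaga

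Nr1h4 (ENSMUSG00000047638, chromosome 10, 89454234 to 89533585, minus strand), the gene of the bile acid receptor FXR, was not called in any comparison, and its values in the combined genotype were mostly below those in WT. It had 167, 171, 147 and 229 CPM in the combined genotype against 153, 250.3, 256 and 240.2 CPM in WT livers. Apart from WT replicate 1, every WT liver lay above every liver of the combined genotype. The difference was -0.33 ± 0.17 (95% interval -0.69 to 0.03, edgeR adjusted p = 0.259). TMEM106B-/- livers, at 136 to 213 CPM, differed from WT by -0.35 ± 0.17 (edgeR adjusted p = 0.337), and TDP-43Q331K livers, at 187 to 217 CPM, by -0.15 ± 0.17 (edgeR adjusted p = 0.727).

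Slc10a1 (ENSMUSG00000021135, chromosome 12, 80953183 to 80968705, minus strand), the sodium-dependent carrier that brings bile acids back from blood, had the highest mean of the genotypes in TMEM106B-/- livers. Its level was 656, 511, 511 and 531 CPM in the combined genotype and 734, 744, 583 and 403 CPM in TMEM106B-/- livers. It was 523, 602, 405 and 594 CPM in TDP-43Q331K livers and 497, 332, 439.6 and 413 CPM in WT livers. All 4 livers of the combined genotype lay above all WT livers. Such a lack of overlap, in either direction, was seen for 2 of the 10 genes in this comparison, Cyp8b1 and Slc10a1, and for 14.6% of all genes tested. It was seen for 0 of the 10 in TMEM106B-/- against WT (7.19% of all genes) and for 0 in the combined genotype against TDP-43Q331K (15%). The difference from WT was 0.39 ± 0.18 in the combined genotype (95% interval 0.01 to 0.78, edgeR adjusted p = 0.212) and 0.55 ± 0.18 in TMEM106B-/- (95% interval 0.16 to 0.94, edgeR adjusted p = 0.169). The TMEM106B-/- difference was called with limma-voom and by edgeR without TMEM106B-/- replicate 4, with adjusted p between 0.0292 and 0.392 over the alternatives.

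Abcb11 (ENSMUSG00000027048, chromosome 2, 69238282 to 69342616, minus strand), the pump that moves bile salts into bile, did not pass edgeR's test in the 6 comparisons. It had 497, 449, 528 and 382 CPM in the combined genotype against 405, 406, 296 and 349.8 CPM in WT livers. Of the combined livers 3 lay above every WT liver. The difference was 0.35 ± 0.12 (95% interval 0.09 to 0.61, edgeR adjusted p = 0.0975), called with limma-voom (adjusted p = 0.0195) and in no other of the 23 alternatives. TMEM106B-/- livers (382 to 444 CPM) and TDP-43Q331K livers (365 to 435 CPM) overlapped with WT. Gm13613 and Gm13614, on the opposite strand, overlap 155 bases of its exons, and the strand setting of the counting is not given in the sources used here.

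Abcc3 (ENSMUSG00000020865, chromosome 11, 94343295 to 94392997, minus strand), an exporter towards blood, had 169, 232, 263 and 259 CPM in the combined genotype against 201, 133, 178 and 185 CPM in WT livers. The groups overlapped through replicate 1 of the combined genotype, a liver of high acute phase, and the difference was 0.41 ± 0.19 (95% interval -0.0032 to 0.81, edgeR adjusted p = 0.225). Slco1b2 (ENSMUSG00000030236, chromosome 6, 141629518 to 141686646, plus strand), a sodium-independent uptake carrier of the sinusoidal membrane, was at 678 to 774 CPM in the combined genotype against 589 to 925 CPM in WT livers. The groups overlapped, with a difference of -0.02 ± 0.14 (95% interval -0.32 to 0.28, edgeR adjusted p = 0.949).

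The upstream windows of Abcb11 (chr2:69342617-69342866, minus strand) and Slco1b2 (chr6:141629268-141629517, plus strand) are shown because both hold an inverted repeat of the kind that FXR is known to bind in Abcb11. The form searched is GGNCA, then any 1 base, then TGACC. Capitals mark its matches, 62 to 52 bases upstream in Abcb11 and 87 to 77 bases upstream in Slco1b2.
Abcb11: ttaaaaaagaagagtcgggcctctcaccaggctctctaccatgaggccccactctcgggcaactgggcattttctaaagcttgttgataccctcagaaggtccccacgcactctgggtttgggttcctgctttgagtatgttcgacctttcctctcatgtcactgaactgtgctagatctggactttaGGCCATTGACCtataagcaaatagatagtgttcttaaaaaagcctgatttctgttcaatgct
Slco1b2: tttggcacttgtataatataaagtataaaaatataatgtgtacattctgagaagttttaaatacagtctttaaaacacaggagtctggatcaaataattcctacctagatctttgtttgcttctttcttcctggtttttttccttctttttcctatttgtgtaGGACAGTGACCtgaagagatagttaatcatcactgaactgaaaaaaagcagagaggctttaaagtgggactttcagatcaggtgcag

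Promoter windows were present for 7 of the 10 genes (8 windows, since Slc10a1 has 2), and Cyp7a1, Baat and Abcc3 were not among them. The search covered both strands of the 250 bases before each start, and the forms of the motifs were settled after the members' sequences had been read. Among all 32851 windows of the table, the inverted repeat occurred in 0.198% and the HNF4 form CAAAGTCCA in 0.384%. The extended NR5A form CAAGGNCA occurred in 5.53%, the short form TCAAGG in 12.5%, the E-box CACGTG in 6.02% and the D-box TTATGNAA in 3.07%, the last being found in Cyp27a1 alone among the members with a window. The NR5A forms can overlap each other, and the HNF4 and NR5A matches of Cyp8b1 overlap by their ends. A match describes letters and was not measured as binding.

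**Figure D4:**
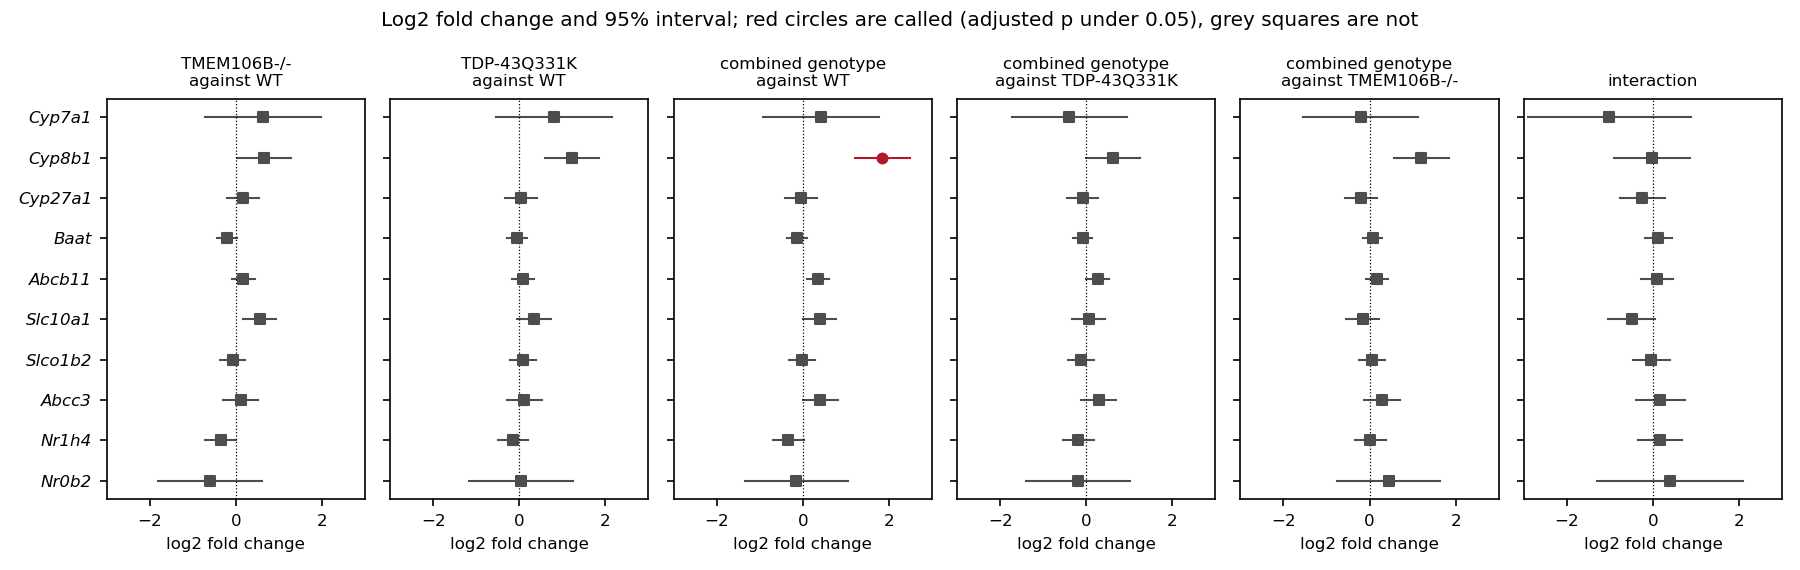
Log2 fold change (points) and 95% interval (bars) of the 10 genes in each of the 6 edgeR comparisons; a red circle is called at an adjusted p under 0.05 and grey squares are not. The 1 red circle is Cyp8b1 in the combined genotype against WT at 1.85, and the widest intervals belong to Cyp7a1 and Nr0b2.

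Beyond the 10 genes, edgeR called genes of the other bile acid lists in each comparison of the combined genotype and in neither single genotype against WT. Of 14 other synthesis genes tested (of 15 listed), 1 rose and 1 fell in the combined genotype against WT, with a median log2 value of 0.01. Of 14 other transport genes tested (of 15), 1 rose and 1 fell (median 0.08), and of 15 genes of regulation tested (of 18), none was called (median -0.10). At an unadjusted p under 0.05 there were 7 synthesis, 4 transport and 3 regulation genes, against 22.6% of all genes tested. The lowest value of the regulation list, named after its values were seen, was that of Onecut1, which encodes the hepatocyte transcription factor HNF6. It averaged 2.599 ± 0.881 CPM in the combined genotype and 12.1 ± 6.81 CPM in WT livers (SD, n = 4 each), with overlapping groups and a log2 value of -2.22 ± 0.70 that did not pass the test (edgeR adjusted p = 0.0722). In TMEM106B-/- against WT, where edgeR called none, 3 synthesis, 3 transport and 2 regulation genes had an unadjusted p under 0.05 (15.1% of all genes). DESeq2 called 2 and limma-voom 3 of the 3 lists together, against 614 and 324 of all genes. In TDP-43Q331K against WT the unadjusted counts were 3, 2 and 1 (15.2% of all genes), and DESeq2 and limma-voom each called 1, against 391 and 341 of all genes. Over all genes tested, 7.04% were called and the median was -0.03. Fgf15, the gut hormone gene that reports bile acid return to the liver, had 0 counts in all 16 livers.

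Cyp7b1, the oxysterol hydroxylase that follows CYP27A1 in the alternative route and is known to be higher in male than in female mouse liver, had the largest fall of the called genes of these lists. It averaged 89.7 ± 13.95 CPM in the combined genotype, 169 ± 63.4 in TMEM106B-/-, 282 ± 33.2 in TDP-43Q331K and 309 ± 51.3 in WT livers (SD, n = 4 each). It fell by 1.79 ± 0.21 against WT on the log2 scale (edgeR adjusted p = 9.76e-05) and by 1.65 ± 0.21 against TDP-43Q331K (edgeR adjusted p = 0.00026). Both calls held in all 23 alternatives. In both comparisons the groups did not overlap, as for 14.6% of all genes against WT and 15% against TDP-43Q331K. Against TMEM106B-/- it fell by 0.91 ± 0.21 (edgeR adjusted p = 0.0429), a call held in 7 of 23 alternatives. It was lost without any single liver other than WT replicate 2 or 3 or TMEM106B-/- replicate 2, and without the 3 livers of high acute phase (-0.60, adjusted p = 0.144). With no filter on low counts and with only the compared groups it was lost as well (edgeR adjusted p = 0.0565 and 0.139). The sex of the mice is not reported here. Its part in the values of Cyp7b1 and of the other called genes was not tested.

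Akr1d1, the reductase that sets the ring junction of bile acids, rose in the combined genotype. It averaged 174 ± 17.7 CPM there, 162 ± 58.4 in TMEM106B-/-, 159.9 ± 25.4 in TDP-43Q331K and 102 ± 15.8 in WT livers. The difference from WT was 0.77 ± 0.20 (edgeR adjusted p = 0.0320). It was lost without WT replicate 2 or 3 or without combined genotype replicate 1, 3 or 4, with an adjusted p of up to 0.0901.

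The uptake carriers Slco1a1 and Slco1a4 changed in opposite directions. Slco1a1 averaged 125 ± 48.2 CPM in the combined genotype and 297 ± 66.5 CPM in WT livers and fell by 1.24 ± 0.27 (edgeR adjusted p = 0.0104). Slco1a4 averaged 39.7 ± 3.08 CPM in the combined genotype and 13.8 ± 2.11 CPM in WT livers and rose by 1.52 ± 0.34 (edgeR adjusted p = 0.0160). Both calls held in all 23 alternatives. They are close paralogs, so reads shared between their copies make each value less certain. Slco1a1 also fell against TDP-43Q331K (by 1.09 ± 0.26, edgeR adjusted p = 0.0292, called in 16 of 23 alternatives) and against TMEM106B-/- (by 1.16 ± 0.26, edgeR adjusted p = 0.0470). The call against TDP-43Q331K was lost without TDP-43Q331K replicate 1, 2 or 4 or combined genotype replicate 3, with no filter on low counts and with only the compared groups, with an adjusted p of up to 0.0830. The call against TMEM106B-/- held in 5 of 23 alternatives and was lost without any single liver other than TDP-43Q331K replicate 3 or combined genotype replicate 2, with an adjusted p of up to 0.121. It was also lost with no filter, with only the compared groups and without the 3 livers of high acute phase (-0.94, edgeR adjusted p = 0.0687).

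Acnat2, a peroxisomal acyltransferase related to Baat, averaged 78.4 ± 7.58 CPM in the combined genotype, 31.7 ± 7.18 in TMEM106B-/-, 35.7 ± 2.29 in TDP-43Q331K and 53.0 ± 26.8 in WT livers. It rose against TMEM106B-/- (1.31 ± 0.26, edgeR adjusted p = 0.0231) and against TDP-43Q331K (1.14 ± 0.26, edgeR adjusted p = 0.0218), and its interaction was called (1.88 ± 0.36, edgeR adjusted p = 0.0270). These calls were each lost without combined genotype replicate 1, 2 or 3 and with no filter on low counts. The first was also lost without TMEM106B-/- replicate 1 or 2, and the others without any 1 TDP-43Q331K library, the interaction also without TMEM106B-/- replicate 2, at adjusted p of up to 0.0724. Slc10a5, a relative of Slc10a1, averaged 14.6 ± 1.11 CPM in the combined genotype, 19.6 ± 1.88 in TMEM106B-/-, 22.9 ± 2.76 in TDP-43Q331K and 17.5 ± 0.987 in WT livers. It fell against TDP-43Q331K (by 0.65 ± 0.10, edgeR adjusted p = 0.00181), with an interaction of -0.82 ± 0.15 (edgeR adjusted p = 0.0149), and both calls held in every alternative run. Ephx1, an epoxide hydrolase linked to bile acid uptake, was higher than in TMEM106B-/- livers by 0.72 ± 0.16 (edgeR adjusted p = 0.0376), a call that held in 13 of 23 alternatives. It was lost without replicate 1, 2 or 4 of TDP-43Q331K or of TMEM106B-/- and without combined genotype replicate 2, 3 or 4, and with only the compared groups, at adjusted p of up to 0.134.

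**Figure D5:**
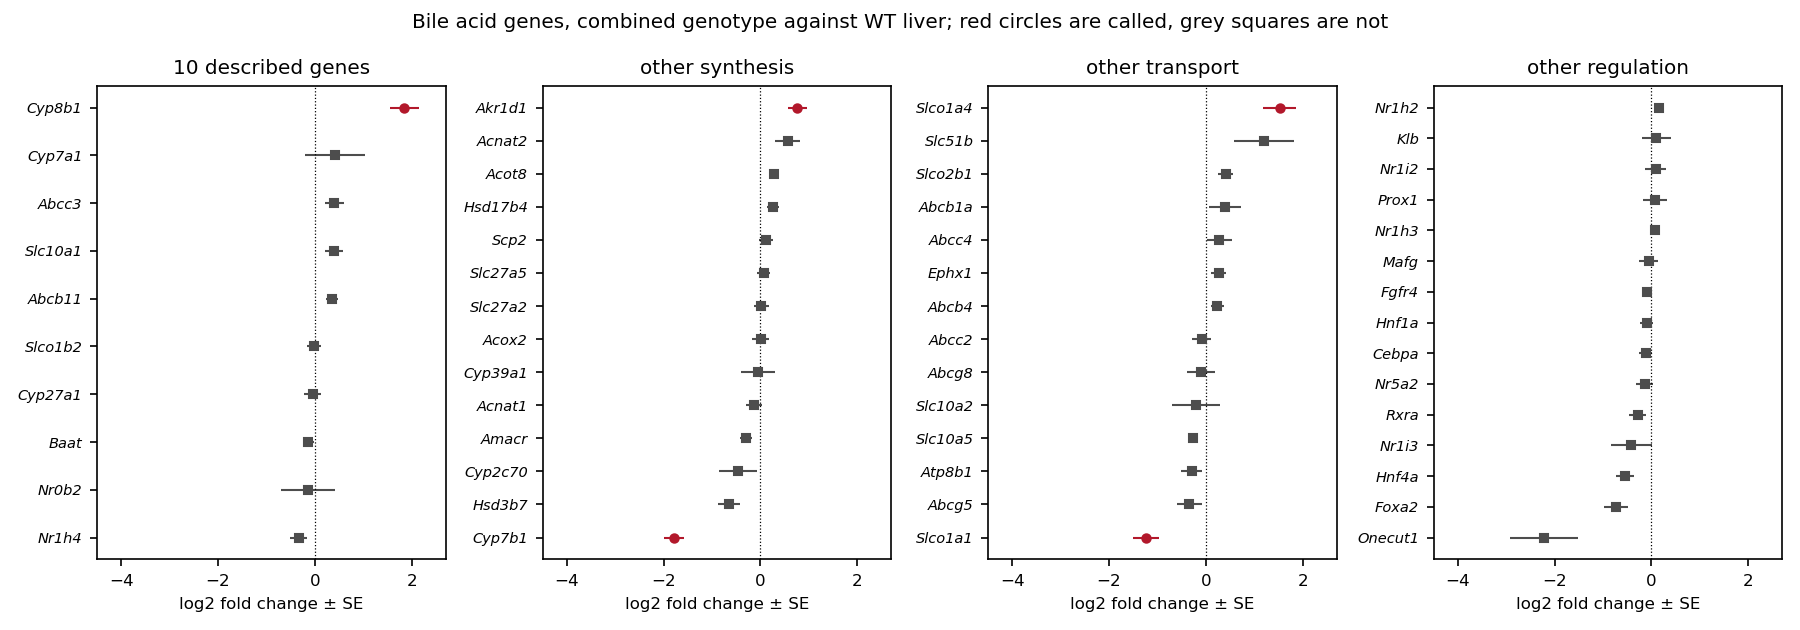
Log2 fold change with SE of the combined genotype against WT for the 10 described genes and for the tested genes of the other synthesis, transport and regulation lists; red circles are called by edgeR at an adjusted p under 0.05. Cyp8b1, Akr1d1 and Slco1a4 stand to the right, Cyp7b1 and Slco1a1 to the left. Onecut1 lies farthest left at -2.22 and is not called, and no gene of the regulation list is red.

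Cell type markers were read in the same comparison of the combined genotype with WT, in which edgeR called 7.04% of all genes tested. Of 7 hepatocyte markers 2 were called, both lower: Apoa1 (by 0.39 ± 0.11) and Serpina1c (by 0.83 ± 0.15). In all, 5 of the 7 values were below 0 and 2 above, with a median of -0.01. The highest, at 0.92, was not called. The list summed to 100028 to 129340 CPM in the combined genotype against 110566 to 134101 CPM in WT livers. Of 8 stellate cell markers 2 rose, the collagens Col1a1 (1.60 ± 0.30) and Col3a1 (1.22 ± 0.21), with sums of 310.0 to 357 CPM against 247 to 307 CPM in WT. Of 5 adipocyte markers 2 had enough counts to be tested. Cidec, which fatty hepatocytes of the mouse also make, was called (3.36 ± 0.58). Retn was called too, but it stayed at or below 0.250 CPM and passed the count filter only through the combined genotype. Its call was therefore not read as a result. The defining markers Adipoq, Plin1 and Lep were at or below 0.515 CPM in every liver of the combined genotype, and the list summed to 9.61 to 50.1 CPM there against 2.31 to 3.98 CPM in WT.

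No bile duct marker was called by edgeR of 8 tested, with sums of 43.1 to 54.1 CPM in the combined genotype against 48.9 to 99.96 CPM in WT. None of 8 Kupffer cell markers was called (146 to 231 CPM against 152 to 317 CPM), none of 8 sinusoidal endothelial (138 to 192 CPM against 153 to 225 CPM) and none of 5 red blood cell markers (96.3 to 149 CPM against 96.7 to 131 CPM). At an unadjusted p under 0.05 these lists had 1, 0, 2 and 1 members, against 22.6% of all genes tested. None of 10 pericentral and none of 10 periportal genes was called, with 0 and 1 at that unadjusted p. The 15 clock genes bear on the daily rhythm of Cyp7a1 and Nr0b2 known in mouse liver. Of them, Npas2 rose (2.68 ± 0.64) and Per2 fell (by 0.95 ± 0.23), beside 7.04% of all genes called. The other 13 were not called. In all, 3 of the 15 had an unadjusted p under 0.05 by edgeR, against 22.6% of all genes tested. The part of these markers in the Cyp8b1 result was not tested.

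The 5 genes whose pattern over the 16 livers was most like that of Cyp8b1 were Msra, Fam19a5, Copz2, Mogat1 and 9130409I23Rik. Likeness was the root mean square difference of log2 CPM after each gene was centred and scaled, and it was 0.400, 0.407, 0.407, 0.432 and 0.446 for these genes, against a median of 1.39 over all 16709 others. Msra, which repairs oxidised methionine, averaged 175 CPM in the combined genotype, 136 in TMEM106B-/-, 152 in TDP-43Q331K and 134 in WT livers. Mogat1, which makes diacylglycerol, averaged 9.42, 2.26, 2.46 and 1.17 CPM in the same order of genotypes. They were picked by this measure, so the likeness is a description.

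In the 21 cortex libraries of the same study, which served only to show whether a gene was detected, the liver-restricted members were near 0. Nr0b2 had 0 counts in all 21, and Cyp7a1, Cyp8b1, Abcb11 and Slc10a1 had at most 2 counts in any library. Nr1h4 had 1 to 13 counts. Baat (6 to 21 counts) and Slco1b2 (6 to 34) were low, while Cyp27a1 (61 to 192) and Abcc3 (100 to 179) were detected throughout. Of the 10 genes, Cyp27a1, Baat, Slco1b2 and Abcc3 passed the low-count filter in cortex.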

How the data were processed

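Total RNA of livers of mice aged 10 months was taken up in Trizol and sequenced from a directional kit with 700 ng of input, per the labels' protocols. The submitters' processing notes name Trim Galore, cutadapt, FastQC and the builds GRCm38 and mm10. Which aligner, counting program and strand setting were used is not given in the sources used here. What the authors deposited were raw read counts, whole numbers with no normalization. Identifiers were matched to symbols with GENCODE M21. The cortex table held 1 column that matched no sample, which was not used.

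Genotypes were compared with the robust quasi-likelihood F-test of edgeR 4.0.16 (R 4.3.3) over all 16 liver libraries, with TMM scaling and filterByExpr (minimum count 10, total 15). That left 12 residual degrees of freedom. P-values were two-sided and adjusted by Benjamini-Hochberg over 16710 genes, with calls under 0.05. SEs come from the F statistic, and 95% intervals from its degrees of freedom. The test was checked on simulated data. The fit was repeated with DESeq2 1.42.0, with limma-voom under quality weights (limma 3.58.1), with RLE size factors, no filter, only the compared groups, a replicate block, and each library left out. Leaving out the 3 livers of high acute phase was added after seeing the data. The labels do not say that a replicate number is shared across genotypes, so the fit has no replicate block.

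All 10 genes were named in every comparison, with the called genes of the other lists (up to 8 each by p) and the 5 genes most like the member of smallest p. The members and lists were chosen with earlier results of these data known. Promoter sequences come from the RefSeq table of GRCm38.p6. Intervals and depth (50.5 to 74.1 M counts) concern these libraries only. Figures were drawn with matplotlib 3.10.9 (Python 3.11.15).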

Additional observations from a re-analysis of the deposited data

Results flagged for a closer look

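Each of the 10 genes was checked in each genotype for a liver that stands apart from the other 3 by Dixon's test on log2 CPM. Chance alone passes this test in about 1 in 20 groups, and 7 of 40 groups passed. The genes were read in the same libraries, so the groups are not independent, and the count was not tested against that rate. In TMEM106B-/- livers, replicate 4 was the lowest for Cyp8b1 (81.9 CPM, others 241 to 284) and for Slco1b2 (534 CPM, others 717 to 759). That liver was also 1 of the 3 of high acute phase. Replicate 2 was the lowest of the WT livers for Cyp27a1 (390.3 CPM, others 499.5 to 523), and replicate 1 of the combined genotype was the highest for Slc10a1 (656 CPM, others 511 to 531), both of them livers of high acute phase. Nr1h4 was lowest in WT replicate 1 (153 CPM, others 240.2 to 256). In TDP-43Q331K livers, Abcb11 was highest in replicate 1 (435 CPM, others 365 to 374) and Slco1b2 lowest in replicate 3 (664 CPM, others 809 to 820.4). Why these livers stand apart was not tested.

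The effect of TMEM106B loss differed with the TDP-43 genotype for 2 of the other bile acid genes by edgeR's interaction test. For Acnat2 the interaction was 1.88 on the log2 scale (adjusted p = 0.0270), being the combined genotype over TDP-43Q331K at 1.14 less TMEM106B-/- over WT. For Slc10a5 it was -0.82 (adjusted p = 0.0149).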

How the results depend on the processing

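Cyp8b1 in the combined genotype against WT was called in all 23 alternatives. Of 1370 alternative values of the 10 genes, 1300 kept their direction and their side of the threshold, 10 kept their direction and came to pass it, none was lost, and 60 changed sign, none of which was called in either setting. Of the values that changed sign, the largest by edgeR on all 16 livers was 0.45. The cause of these changes was not tested.

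Counts moved more with the tool. DESeq2 was run on all genes with any count under its own filter, so its set of tested genes was not the 16710 of edgeR. It called 614 genes in TMEM106B-/- against WT, 391 in TDP-43Q331K against WT and 1847 in the combined genotype against WT. For the combined genotype it called 1309 against TDP-43Q331K and 531 against TMEM106B-/-, with 597 in the interaction. limma-voom called 324, 341, 1940, 1865, 376 and 320 in the same order. Of the 10 genes, DESeq2 called 1 in TDP-43Q331K against WT and 1 in the combined genotype against TMEM106B-/- (Cyp8b1 in each). limma-voom called 1 in each single genotype against WT, 2 in the combined genotype against WT and 1 against TMEM106B-/-. With only the compared groups, edgeR called 60 genes in TMEM106B-/- against WT, 20 in TDP-43Q331K against WT and 81 in the combined genotype against TMEM106B-/-. Without the livers of high acute phase it called 12 in TDP-43Q331K against WT.

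With a replicate block edgeR called 13 genes in TDP-43Q331K against WT, against 44 without it, and it changed no count of the 10 genes. Of the other bile acid genes, the block ended the calls of Akr1d1 in the combined genotype against WT (adjusted p = 0.0539) and of Slco1a1 against TDP-43Q331K (adjusted p = 0.0584) and against TMEM106B-/- (adjusted p = 0.0884). The deviations of same-numbered libraries correlated at -0.19 to 0.26 over 24 pairs, with a mean of -0.0021, beside 0.00049 for libraries of other numbers. Of 16 libraries, 8 correlated best with a library of their own number, and no chance level was computed for that count. Whether the numbers pair the libraries was therefore not settled.

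With 1 library left out, all genes called ranged over 55 to 353 in TMEM106B-/- against WT, 7 to 84 in TDP-43Q331K against WT, 681 to 1454 in the combined genotype against WT, 248 to 880 against TDP-43Q331K, 77 to 219 against TMEM106B-/- and 51 to 189 in the interaction. Of the 10 genes, 0 to 2 were called in TMEM106B-/- against WT, 0 to 1 in TDP-43Q331K against WT and 0 to 1 in the combined genotype against TMEM106B-/-, the higher counts always without TMEM106B-/- replicate 4.

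The values that changed sign, all log2 fold changes, were these. With limma-voom, Slco1b2 was 0.073 in TMEM106B-/- against WT, 0.051 in the combined genotype against WT and -0.022 against TMEM106B-/-. Baat was 0.024 in TDP-43Q331K against WT, Cyp7a1 -0.014 in the combined genotype against WT, Slc10a1 -0.053 against TDP-43Q331K, Nr1h4 -0.020 against TMEM106B-/- and Abcb11 -0.014 in the interaction. With a replicate block the Cyp8b1 interaction was 0.026. Without the livers of high acute phase, Slco1b2 was 0.030 in TMEM106B-/- against WT, 0.0053 in the combined genotype against WT and -0.025 against TMEM106B-/-. Cyp27a1 was -0.047 in TDP-43Q331K against WT, Nr0b2 0.29 in the combined genotype against WT, Slc10a1 -0.036 against TDP-43Q331K and Abcb11 -0.015 in the interaction.

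With 1 library left out, values in TDP-43Q331K against WT ranged over -0.00062 to 0.14 for Abcb11, -0.033 to 0.21 for Abcc3, -0.047 to 0.12 for Cyp27a1, -0.17 to 0.33 for Nr0b2 and -0.0021 to 0.22 for Slco1b2. In TMEM106B-/- against WT, Slco1b2 ranged over -0.17 to 0.058. In the combined genotype against WT the ranges were -0.16 to 0.10 for Cyp27a1, -0.096 to 0.77 for Cyp7a1, -0.67 to 0.14 for Nr0b2 and -0.11 to 0.11 for Slco1b2. Against TDP-43Q331K they were -0.20 to 0.056 for Cyp27a1, -0.71 to 0.097 for Nr0b2 and -0.053 to 0.12 for Slc10a1. Against TMEM106B-/- they were -0.0063 to 0.13 for Baat, -0.72 to 0.22 for Cyp7a1, -0.076 to 1.08 for Nr0b2, -0.12 to 0.13 for Nr1h4 and -0.052 to 0.10 for Slco1b2. In the interaction they were -0.29 to 0.15 for Cyp8b1, -0.12 to 1.04 for Nr0b2 and -0.17 to 0.056 for Slco1b2.

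The 10 genes had 749 counts or more in every library. Whether more depth would change a call was not tested.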
